A study of Mus musculus with 3 samples.

Results

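Chromatin accessibility was examined around 8 genes that encode transcription factors of bone and cartilage formation, namely Runx1, Runx2, Runx3, Sp7, Dlx5, Dlx6, Msx1 and Msx2, in mesenchymal progenitors (MPs) sorted from the embryonic mouse forelimb. The members were all ATAC peaks that overlapped the body of 1 of these genes or the 20 kb on either side of it in the mm10 build. These windows held 155 of the 190443 peaks of the E12.5 library, 100 of the 102459 peaks of the E14.5 library and 163 of the 213613 peaks of the E16.5 library. Merging overlapping peaks gave 195 regions, and 76 of them had a peak in every library (common regions, of 84660 in the genome). Sums and counts rested on 74 of the 76, because 2 regions lay at the promoter of another protein-coding gene. The 74 regions comprised 22 at Runx1, 22 at Runx2, 10 at Runx3, 7 at Sp7, 5 at the adjoining genes Dlx5 and Dlx6 (treated as 1 locus), 2 at Msx1 and 6 at Msx2.

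The series profiled single nuclei by ATAC sequencing at 3 embryonic stages, E12.5, E14.5 and E16.5, with 1 library per stage. The embryos were C57BL/6J and carried the Hic1CreERT2/CreERT2 driver with the Rosa26LSLtdTomato/tdTomato reporter, and every dam had been gavaged once with 7.5 mg tamoxifen in 300 µL sunflower oil at embryonic day 10. The reporter therefore marks cells in which Hic1 drove Cre around that pulse and the descendants of those cells, whatever their Hic1 expression at harvest. The E12.5 and E14.5 libraries came from the forelimb, and the E16.5 library came from the piece around the elbow (distal stylopod and proximal zeugopod). Blood, endothelial and Kit-bearing cells were gated out in the sort by CD11b, CD31, CD45, CD117, Ter119 and F4/80. Dispase was used to dissociate the E12.5 tissue, and a mixture of Collagenase A, Pronase and DNase was used at the later stages. Stage cannot be told apart from library, limb segment, dissociation or the version of the counting software, and with 1 library per stage no p-value was computed.

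RUNX proteins bind DNA as heterodimers with CBFB. Runx2 is the master regulator of osteoblast commitment and also drives chondrocyte hypertrophy, Runx1 is best known for blood stem cell formation and is also active in early skeletal and tendon mesenchyme, and Runx3 acts with Runx2 in cartilage maturation and in sensory neurons and T cells. Each Runx gene is transcribed from a distal promoter (P1) and a proximal promoter (P2) that give proteins with different N termini. Sp7 (osterix) acts downstream of Runx2 in osteoblasts. Dlx5, Dlx6, Msx1 and Msx2 encode homeodomain proteins that respond to BMP signalling, the Dlx pair favouring and the Msx pair often restraining skeletal differentiation.

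From the earliest to the latest stage the libraries held 8294, 20023 and 14048 nuclei, with medians of 6003.5, 8575 and 26694 cut sites in peaks per nucleus. The E16.5 library was thus the deepest and the E14.5 library had the fewest peaks. Between 151 and 401 barcodes were shared by any pair of libraries. The promoters of the mesenchymal genes Hic1 and Pdgfra were open at every stage (119.3 to 156.4 CPM), the promoters of Ptprc (CD45), Itgam (CD11b) and Adgre1 (F4/80) had no peak, Pecam1 (CD31) was at or below 1.73 CPM, and Kit (CD117) remained at 29.2 to 50.4 CPM although CD117 was used to remove cells. CPM is the number of cut sites per 1000000 cut sites in autosomal common regions of the same nuclei, and all intervals are exact 95% Poisson or conditional binomial intervals on fragment equivalents, which cover counting error only.

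Sequences of 7 of 10 elements read from the genome are given as examples of the promoters and elements whose accessibility differed between the groups of nuclei described below. 2 of them are the 250 bases before the P1 start of Runx2 (chr17:44814798-44815047) and of Runx3 (chr4:135120402-135120651), and the others are the central 300 bases of 3 Runx1 elements (chr16:92719836-92720135, chr16:92654247-92654546 and chr16:92713252-92713551), of an intronic Sp7 element (chr15:102362809-102363108) and of an intronic Runx2 element (chr17:44540932-44541231). All are from the mm10 (GRCm38) genome, 5′ to 3′ on the strand of the gene, which is the plus strand for Runx3 and the minus strand for the others. Capitals mark matches to the RUNX core TGTGGT, the DLX and MSX core TAATTG or the AP-1 motif TGANTCA on either strand. Runx2 P1 held 1 RUNX core and 1 AP-1 motif, Runx3 P1 held 2 RUNX cores side by side, the Runx1 element of cluster 3 held 1 RUNX core, the Runx2 element of cluster 7 held 1 DLX and MSX core, and the other 3 held none of these letters, nor did the 3 elements not shown.
Runx2 P1 upstream: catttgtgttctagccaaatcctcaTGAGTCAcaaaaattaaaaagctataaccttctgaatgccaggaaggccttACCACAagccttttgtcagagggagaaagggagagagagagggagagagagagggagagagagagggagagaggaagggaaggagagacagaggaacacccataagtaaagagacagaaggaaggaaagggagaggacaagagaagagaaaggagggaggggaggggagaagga
Runx3 P1 upstream: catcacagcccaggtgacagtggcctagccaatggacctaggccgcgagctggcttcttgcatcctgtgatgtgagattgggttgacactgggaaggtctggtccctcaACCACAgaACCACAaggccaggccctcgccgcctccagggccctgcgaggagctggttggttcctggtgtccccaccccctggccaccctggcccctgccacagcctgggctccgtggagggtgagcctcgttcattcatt
Runx1 element of E16.5 cluster 3: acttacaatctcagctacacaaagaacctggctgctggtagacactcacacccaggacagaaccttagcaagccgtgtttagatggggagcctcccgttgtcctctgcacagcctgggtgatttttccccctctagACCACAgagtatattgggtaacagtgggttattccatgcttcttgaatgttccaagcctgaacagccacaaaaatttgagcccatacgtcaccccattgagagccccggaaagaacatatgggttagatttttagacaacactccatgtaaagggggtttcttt
Runx1 element of E16.5 cluster 4: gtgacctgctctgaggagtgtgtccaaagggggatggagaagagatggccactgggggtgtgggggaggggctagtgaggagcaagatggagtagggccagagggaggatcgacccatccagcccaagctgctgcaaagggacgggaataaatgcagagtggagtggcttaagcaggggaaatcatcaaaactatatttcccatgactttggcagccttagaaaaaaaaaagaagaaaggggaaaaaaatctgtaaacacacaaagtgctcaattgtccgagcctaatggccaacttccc
Runx1 element of E16.5 cluster 5: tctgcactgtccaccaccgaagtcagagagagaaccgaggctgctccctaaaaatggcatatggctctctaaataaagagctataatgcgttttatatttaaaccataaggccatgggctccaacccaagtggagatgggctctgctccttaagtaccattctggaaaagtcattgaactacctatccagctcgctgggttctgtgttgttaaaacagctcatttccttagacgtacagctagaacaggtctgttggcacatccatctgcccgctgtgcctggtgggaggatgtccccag
Sp7 element of E16.5 cluster 4: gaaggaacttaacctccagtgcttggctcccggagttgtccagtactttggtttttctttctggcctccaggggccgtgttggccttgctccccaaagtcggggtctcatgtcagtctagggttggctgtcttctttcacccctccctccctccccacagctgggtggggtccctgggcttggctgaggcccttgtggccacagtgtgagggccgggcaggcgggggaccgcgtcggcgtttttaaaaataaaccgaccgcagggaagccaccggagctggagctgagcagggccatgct
Runx2 element of E16.5 cluster 7: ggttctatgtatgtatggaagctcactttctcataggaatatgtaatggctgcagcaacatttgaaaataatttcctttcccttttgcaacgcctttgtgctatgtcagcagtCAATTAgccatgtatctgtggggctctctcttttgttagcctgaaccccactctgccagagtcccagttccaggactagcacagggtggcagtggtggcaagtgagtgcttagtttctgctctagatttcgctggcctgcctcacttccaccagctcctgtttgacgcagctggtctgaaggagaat

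Summed over its regions, no member locus differed 2-fold or more between stages, and the 3 Runx loci differed in their course. A lower sum cannot tell fewer nuclei with an open locus from less opening per nucleus. In order of stage, Runx1 gave 216.6 CPM (95% interval 212.0 to 221.4), 185.1 (182.5 to 187.7) and 219.1 (216.8 to 221.3). Runx2 gave 267.2 (262.0 to 272.5), 207.7 (205.0 to 210.5) and 227.7 (225.4 to 229.9) in the same order. Runx3 gave 146.2 (142.4 to 150.1), 112.3 (110.3 to 114.4) and 100.4 (98.9 to 101.9). In these sums Runx1 and Runx2 were lowest at E14.5, and Runx3 was lower at each later stage, but the single steps depended on the counting. From E12.5 to E14.5 all 3 turned positive per kb of called width (0.38, 0.21 and 0.68 on the log2 scale), as did Runx1 in matched-position regions (0.18), and from E14.5 to E16.5 Runx1 and Runx2 turned negative per kb (-0.53 and -0.63), Runx2 also under median scaling (-0.02) and in matched-position regions (-0.10), while Runx3 stayed negative. From E12.5 to E16.5 the log2 ratio was 0.02 (-0.02 to 0.05) for Runx1, -0.23 (-0.26 to -0.20) for Runx2 and -0.54 (-0.59 to -0.50) for Runx3. Under every alternative way of counting, Runx2 (-0.46 to -0.07) and Runx3 (-0.57 to -0.28) stayed lower at E16.5, whereas Runx1 ranged from -0.15 to 0.31 and took both signs. Window sums of all 17531 autosomal protein-coding genes had a median log2 ratio of 0.12 in the first step and -0.13 in the second. Over both steps it was -0.01. As summed here, the lower Runx values at E14.5 ran against most genes, since 11509 were above their E12.5 level. Over single autosomal common regions, an unlike measure, the medians were -0.19, 0.15 and -0.01 in the same order.

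Sp7, whose product completes osteoblast differentiation, gave 77.2 (74.4 to 80.0), 89.2 (87.3 to 91.0) and 87.5 (86.1 to 88.9) CPM, and so was the only locus above its E12.5 level at both later stages. Of all 17531 genes, 11509 were above their E12.5 level at E14.5 and 8638 at E16.5. With a region at another gene's promoter included, Sp7 stood at percentiles 68.6 and 73.1 of these ratios, so its rise was not unusual. Its log2 ratio from E12.5 to E16.5 was 0.18 (0.12 to 0.24), but it turned to -0.12 when the counts were divided by the width of the called peaks. The joint Dlx5 and Dlx6 locus gave 105.2, 99.0 and 96.0 CPM, a log2 ratio of -0.13 that reached 0.02 in nuclei thinned to 1 depth. Msx1 gave 61.5, 56.8 and 56.1 CPM. Msx2 gave 64.7 (62.1 to 67.3), 54.6 and 46.3 (45.3 to 47.4) CPM, with -0.48 (-0.55 to -0.41) on the log2 scale between the first and last stage that stayed between -0.66 and -0.35 under the alternatives. For comparison, 1.57% of the 17531 autosomal protein-coding genes were at least 2-fold higher and 2.46% at least 2-fold lower at E16.5 than at E12.5 when their windows were summed, against 0 of the 8 member genes in either direction.

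**Figure D1:**
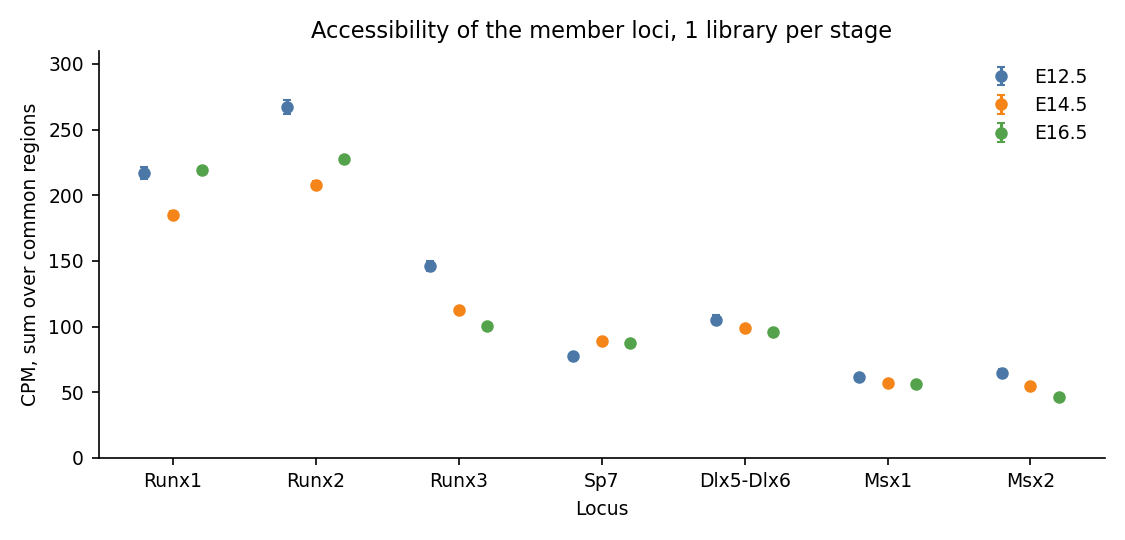
Accessibility of the 7 member loci (x axis) in CPM summed over their common regions (y axis, linear from 0) in the E12.5, E14.5 and E16.5 libraries, 1 library each; points are the library's value and bars are exact 95% Poisson intervals. Runx3 and Msx2 step down with stage, Runx1 and Runx2 are lowest at E14.5, and Sp7 is lowest at E12.5.

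Below the 2-fold limit of the sums, single elements differed between stages in both directions, at about the rate seen genome-wide. Of the 74 regions, 11 were at least 2-fold higher and 14 at least 2-fold lower at E16.5 than at E12.5, beside 18.5% and 16.5% of all 82930 autosomal common regions. From E12.5 to E14.5, 5 were higher and 15 lower (10.6% and 20.6% of all regions), and from E14.5 to E16.5, 12 were higher and 4 lower (19.9% and 6.92%). The members' median log2 ratio was -0.40 in the first step, 0.15 in the second and -0.17 over both, where all regions had -0.19, 0.15 and -0.01. Over the genome, called peaks were widest in the E16.5 library (median 606 bp, against 558 bp at E12.5 and 575 bp at E14.5). Within the member regions the called width was 136904, 85571 and 151294 bp in order of stage, and so was smallest at E14.5. Per kb of called width 1 region was higher and 8 were lower at E16.5 than at E12.5. From E12.5 to E16.5, 5 higher and 4 lower lay at Runx1 and 5 higher and 7 lower at Runx2, while Runx3 had 2 lower, Sp7 had 1 higher and Msx2 had 1 lower.

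Of the 14 promoter regions none was at least 2-fold higher and 1 was at least 2-fold lower at E16.5 than at E12.5, against 11 and 13 of the 60 others. The 14 included regions that lay only at starts of non-coding transcripts, and the lower one (chr17:44709485-44710693, log2 ratio -1.16) was such a region. The contrast of promoter and other regions was close to that over all regions. There, 5.15% of promoter regions were higher and 5.69% lower, against 22.0% and 19.3% of the others. The P2 promoter region of Runx1 (chr16:92694427-92700474) gave 45.8, 52.3 and 48.1 CPM in order of stage, and that of Runx2 (chr17:44733560-44739755) gave 44.8, 52.0 and 42.4 CPM. All promoter regions went the same way, with median log2 ratios of 0.21 from E12.5 to E14.5 and -0.24 from E14.5 to E16.5. All other regions had -0.36 and 0.32. In nuclei thinned to 1 depth, promoter regions held 48.3%, 56.4% and 49.9% of fragments in order of stage. The region at the P2 promoter of Runx3 (chr4:135149920-135160859) gave 49.8, 43.8 and 42.5 CPM. The distal promoter regions, which were also narrower, held less signal. No library had a peak at the annotated P1 start of Runx1 (chr16:92826149), and the nearest peak lay 1594 to 3673 bp away. Runx2 P1 (chr17:44814109-44815579) gave 6.43, 4.03 and 4.32 CPM, and Runx3 P1 (chr4:135119860-135120953) gave 4.40, 2.72 and 2.83 CPM. Both P1 regions were lower at E16.5 than at E12.5 under every alternative, with log2 ratios of -0.96 to -0.39 for Runx2 and -0.69 to -0.43 for Runx3.

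The Sp7 start was a weak site as well, at 5.98, 4.96 and 4.55 CPM (chr15:102366419-102367360). The highest Sp7 region at E16.5 lay about 10.5 kb upstream of the start (chr15:102376224-102378734), with 23.2, 32.5 and 31.3 CPM. The Dlx5 promoter region (chr6:6877547-6883846) gave 32.0, 38.0 and 29.7 CPM and the Dlx6 promoter region (chr6:6859590-6866129) gave 47.9, 43.4 and 34.7 CPM. The single large region over Msx1 (chr5:37816765-37825131) gave 53.2, 48.2 and 44.1 CPM, and the Msx2 promoter (chr13:53471642-53473530) gave 17.5, 19.8 and 17.8 CPM. The lower value at E16.5 held under every alternative for Dlx6 and Msx1, and the direction at Dlx5 and Msx2 turned with the way of counting.

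At Runx1 all 5 regions that were at least 2-fold higher at E16.5 lay in the intron between P1 and P2, as did 1 of the 4 that were at least 2-fold lower and 12 of all 22, and none of the 5 was 2-fold higher per kb of called width. The largest gain among regions with at least 5 CPM somewhere was at chr16:92785234-92787370, with 2.0, 4.28 and 8.95 CPM and an E16.5 over E12.5 log2 ratio of 2.16 (1.84 to 2.51). That ratio was 0.15 per kb of called width. A neighbour called at matched positions in all libraries, chr16:92787883-92789169, gave 8.93, 10.4 and 22.5 CPM, a log2 ratio of 1.33 (1.17 to 1.5) and 0.86 per kb. The largest loss was at chr16:92812314-92813075, with 5.11, 1.49 and 0.587 CPM, a log2 ratio of -3.12 (-3.45 to -2.79) and -1.65 per kb. A region over an exon near the gene's 3′ end, chr16:92605379-92606383, gave 14.1, 8.56 and 6.29 CPM, and was -1.07 on the log2 scale per kb.

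At Runx2 the largest gain was at the intronic region chr17:44637191-44638904, with 0.648, 0.841 and 6.13 CPM, a log2 ratio of 3.24 (2.74 to 3.79) and 0.62 per kb. The most distal intronic region, chr17:44500077-44501013, 235.1 kb downstream of the nearest start, gave 4.58, 6.30 and 12.1 CPM, with 1.40 (1.18 to 1.63) on the log2 scale and 1.06 per kb. The largest loss was at chr17:44562910-44564144, over an exon, with 9.79, 7.32 and 1.58 CPM, a log2 ratio of -2.63 (-2.85 to -2.41) and -1.56 per kb. The adjoining region chr17:44564808-44566676 gave 19.4, 19.7 and 9.40 CPM, so both had most of their E12.5 level at E14.5 and were lower at E16.5. Other Runx2 elements were already lower at E14.5. The intronic region chr17:44601168-44602180 gave 13.7, 3.10 and 4.02 CPM. The region chr17:44709485-44710693, at the start of a non-coding transcript, gave 25.1, 10.0 and 11.3 CPM. The intronic region chr17:44766229-44769085 gave 29.7, 12.7 and 8.65 CPM. From E12.5 to E14.5 their log2 ratios were -2.15, -1.33 and -1.22, but -1.17, -0.74 and -0.18 per kb of called width.

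The other loci had smaller differences. At Runx3 the largest loss was at the intronic region chr4:135165393-135169091, with 28.1, 21 and 12.6 CPM. Its log2 ratio was -1.16 (-1.26 to -1.05), and -0.90 per kb. Among Runx3 regions with at least 5 CPM in a library the largest gain was 0.12 (5.93, 3.73 and 6.44 CPM at chr4:135140179-135142200). A weaker Runx3 region, chr4:135161690-135162205, gave 1.0, 2.33 and 1.87 CPM, 0.91 (0.43 to 1.42) on the log2 scale. At Sp7 the intronic region chr15:102362418-102363500 gave 2.34, 3.88 and 5.25 CPM, a log2 ratio of 1.17 (0.86 to 1.49) and 0.20 per kb, while chr15:102381275-102382210 gave 10.7, 7.54 and 9.01 CPM. At Msx2 the intergenic region about 3 kb upstream of the start, chr13:53475000-53477063, gave 20.5, 15.7 and 8.28 CPM, a log2 ratio of -1.31 (-1.44 to -1.18) and -1.25 per kb. At Msx1 the upstream region chr5:37825669-37829635 gave 8.30, 8.61 and 11.9 CPM, a log2 ratio of 0.53 that was -0.21 per kb. The region upstream of Dlx5, chr6:6884643-6885579, gave 8.90, 7.38 and 7.15 CPM.

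Nuclei of each library were next divided into 7 clusters from regions that lay more than 100 kb from every member and marker gene. The clusters, numbered by size, describe how the signal was distributed over nuclei, and differences between them were not tested. Among the E16.5 clusters, cluster 4 (1935 nuclei) was chondrogenic-like, with all 14 chondrogenic markers highest there. Cluster 5 (1315 nuclei) was tenogenic-like, with 6 of 8 measured tenogenic markers highest there. Its 10 leading genes also held Col22a1, which was on the osteogenic list used here. The study that reported these data uses Col22a1 as a marker of myotenocytes instead, and the gene stayed among the osteogenic markers counted below. Cluster 3 (2181 nuclei, 15.5%) had no listed marker among its leading genes (Lrtm1, Atp10b and others) and remained unnamed. It was highest for 7 of 10 dermal fibrogenic markers and for 4 of the 6 osteogenic markers that had a common region (Alpl, Col1a1 and Mepe among them, of 12 listed), with median log2 ratios to the other nuclei of 0.73 and 0.56. Cluster 7 (1177 nuclei) led with Cldn4, Trim29, Ovol1 and Cdh1, genes known from epithelia, and was highest for the epithelial markers Epcam and Krt14 (2 of the 3 measured) and for 4 of 5 perineural markers. Its median log2 ratios to the other nuclei were 1.06 for the epithelial and 0.81 for the perineural markers. From its E16.5 single-cell RNA data the study that reported these data removed small groups of contaminating epithelial cells, marked by Krt1 or Krt14. No nuclei were removed here. Cluster 7 too was left unnamed, and the part of epithelial nuclei in its values was not tested.

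In the E16.5 library 5 of the 7 loci were most accessible in the unnamed cluster 3. Runx2 had 353.1 CPM (346.4 to 360.0) there and 135.6 to 252.0 in the other clusters. Runx1 had 314.8 CPM (308.5 to 321.3) there and 135.7 to 281.0 elsewhere, and Runx3 had 168.9 (164.3 to 173.7) and 68.7 to 122.4. For these loci the interval of cluster 3 lay clear of every other cluster's value, a separation that also held for Sp7 (119.3, 115.4 to 123.3, and 69.5 to 108.4 elsewhere) and Msx1 (74.3, 71.3 to 77.5, and 43.8 to 66.0). Of all 17531 genes, 2.57% had a log2 ratio of cluster 3 to the other nuclei at or above that of Runx2, 3.82% at or above Runx1, 1.73% at or above Runx3, 4.90% at or above Sp7 and 5.76% at or above Msx1. These percentages rank that ratio only, and the gene sums include regions at promoters of other genes. The share of all genes highest or set apart in cluster 3 is not given here, so the count of 5 loci has no background. Dlx5 and Dlx6 (150.8 CPM, 143.7 to 158.2) and Msx2 (77.1, 72.1 to 82.4) were instead highest in cluster 7, with 111.4 and 68.3 CPM in cluster 3. By the same rank, however, Msx2 stood higher in cluster 3 (3.31% of genes at or above) than in cluster 7 (6.96%). The Dlx locus had 12.4% in cluster 3 and 9.35% in cluster 7. Runx1 ranked nearly as high in the tenogenic-like cluster 5 (4.50%) as in cluster 3. Nuclei of cluster 3 had a median depth 118.6% of the library's median, and cluster 6, which was lowest for 5 loci, had 52.7% of it and the highest share of its cut sites in promoters (60.5%).

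The same 5 loci were highest in 1 cluster under all 4 other clusterings of the E16.5 nuclei, and that cluster took 98.0% to 100% of its nuclei from cluster 3. At E14.5, 10 clusters and another seed kept the Dlx locus, Msx1 and Msx2 in 1 cluster (90.9% and 99.5% of its nuclei from cluster 3), whereas 5 clusters put Msx2 with Runx2 and Runx3 and clustering on regions outside promoters put Sp7 with them. At E12.5, 5 clusters in place of 7 put 6 of the 7 loci in 1 cluster. The ratio of the highest to the lowest cluster was 1.24 to 1.69 over the loci in the E12.5 library, 1.65 to 2.07 in that of E14.5 and 1.70 to 2.61 in that of E16.5, but for Sp7 (1.80 against 1.72) and Msx1 (1.98 against 1.70) it was larger at E14.5 than at E16.5. At E14.5 Runx2 (300.3 CPM) and Runx3 (172.8 CPM) peaked in cluster 5 (2441 nuclei), which was highest for 9 of 10 dermal fibrogenic markers and for the same 4 osteogenic markers as cluster 3 of E16.5. Runx1 had 234.9 CPM both in that cluster and in the chondrogenic-like cluster 2. All 14 chondrogenic markers were highest in cluster 2, as were 4 of 8 measured tenogenic markers (Cilp, Fmod, Kera and Scx). Sp7 peaked in cluster 4 (121.1 CPM), and the Dlx locus (128.4 CPM), Msx1 (87.4 CPM) and Msx2 (69.3 CPM) peaked in cluster 3 of the E14.5 library.

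**Figure D2:**
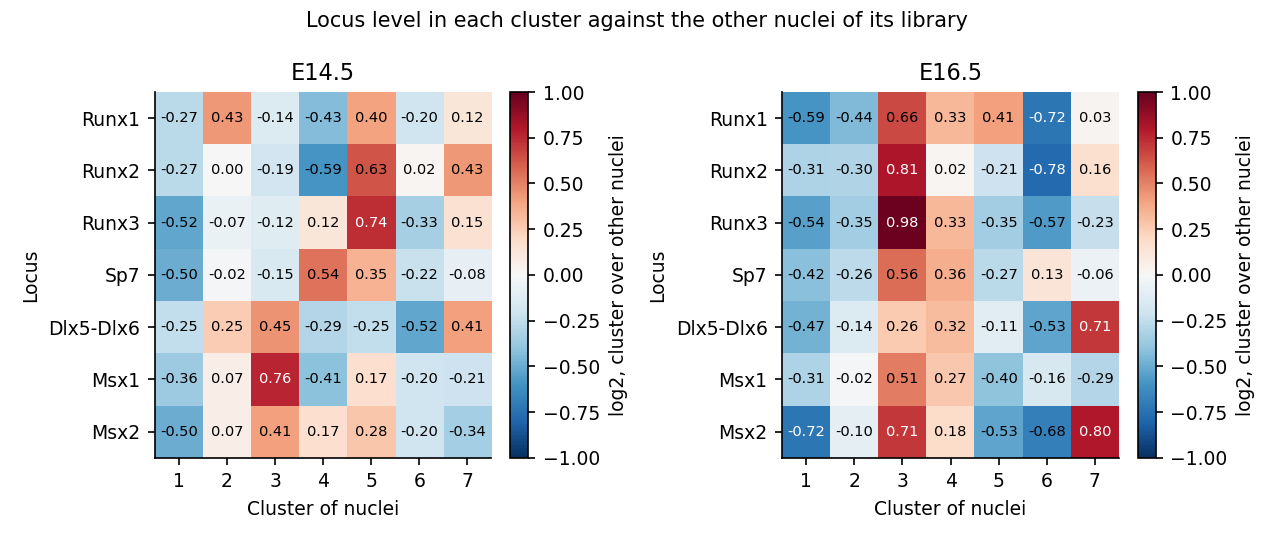
Heat maps of the log2 ratio of each locus (rows) in each of the 7 clusters of nuclei (columns, numbered by size within each library) to the other nuclei of the same library, for E14.5 (left) and E16.5 (right); red is higher and blue is lower, and each cell prints its value. At E16.5 column 3 is positive for all 7 loci, from 0.26 for Dlx5-Dlx6 to 0.98 for Runx3, whereas at E14.5 the loci peak in different columns.

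Within a locus, different elements were highest in different clusters, which was not compared with other loci of as many regions. Of the 74 regions, 23 (31.1%) were at least 2-fold higher in E16.5 cluster 3 than in the other nuclei, where 12.5% of all regions were. For the chondrogenic-like cluster 4 it was 10 (13.5%, against 8.56%). For the tenogenic-like cluster 5 it was 9 (12.2%, against 8.93%), and for cluster 7 it was 11 (14.9%, against 10.2%). Those last 3 shares were nearer to the shares of all regions than that of cluster 3 was. The 23 of cluster 3 comprised 10 at Runx2, 7 at Runx1, 3 at Runx3, 2 at Msx2 and 1 at the Dlx locus, and 8 of the 9 of cluster 5 lay at Runx1. At E14.5, 19 regions were at least 2-fold higher in cluster 5 (11.3% of all), 7 in cluster 2 (8.33%) and 10 in cluster 7 (7.78%). Of the 19 regions of E14.5 cluster 5, 17 (89.5%) were also among the 23 of E16.5 cluster 3 (73.9% of those), whereas over all regions 74.2% and 67.3% were shared.

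Runx1 showed this most plainly, since at E16.5 different intronic elements led in clusters 3, 4, 5 and 7 while its P2 promoter region had 46.6 to 65.9 CPM in these clusters. The elements below were picked after their values by cluster had been seen. In cluster 3, chr16:92737790-92740791 reached 54.7 CPM (52.0 to 57.4) against 2.63 to 11.5 elsewhere, and chr16:92719528-92720444, shown above, reached 23.7 CPM (22.0 to 25.5) against 0.954 to 4.02. The region with the largest gain over the stages, chr16:92785234-92787370, belonged with them, at 33.7 CPM against 1.81 to 6.65. In the chondrogenic-like cluster 4, downstream of P2, chr16:92653690-92655103 had 44.1 CPM (41.4 to 47.0) against 2.96 to 12.2, and chr16:92644377-92647270 had 25.8 CPM against 2.39 to 7.45. In the tenogenic-like cluster 5, chr16:92713139-92713665 had 11.3 CPM (9.84 to 12.9) against 0.0909 to 2.14. The matched-position region that gained between stages, chr16:92787883-92789169, was also highest in cluster 5 (47.9 CPM, 44.8 to 51.1), but was open in cluster 1 too (32.6 CPM). Cluster 7 led at chr16:92607990-92610095, with 33.3 CPM against 3.21 to 19.7.

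**Figure D3:**
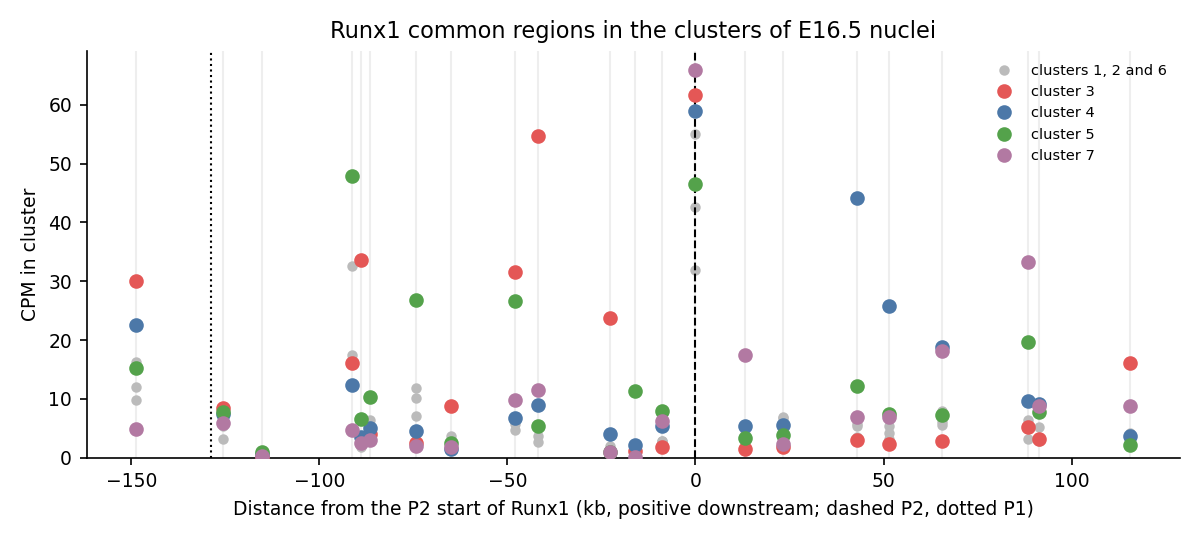
CPM (y axis, linear from 0) of the 22 Runx1 common regions in the clusters of E16.5 nuclei against the distance of each region's centre from the P2 start in kb (x axis, positive downstream; dashed line P2, dotted line P1); colours mark clusters 3, 4, 5 and 7 and grey marks clusters 1, 2 and 6. Cluster 3 stands above the rest at 54.7 CPM upstream of P2, and cluster 4 at 44.1 CPM downstream of it.

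Runx2 elements were likewise split, with 10 of its 22 regions at least 2-fold higher in cluster 3 than in the other nuclei, 4 in cluster 4 and 4 in cluster 7, beside the shares of all regions given above. In cluster 3, the intronic region chr17:44682578-44683699 had 21.8 CPM against 2.09 to 6.13, chr17:44559835-44560578 had 16.6 CPM against 1.21 to 3.90, and chr17:44782272-44782789, between P1 and P2, had 9.46 CPM (8.41 to 10.6) against 0.233 to 1.33. The last of these was already divided at E14.5, with 7.26 CPM in cluster 5 and 0.198 to 1.04 in the other clusters. In cluster 7 of E16.5, chr17:44540618-44541546 had 18.9 CPM (16.5 to 21.6) against 0.759 to 6.36, and chr17:44545131-44548557 had 60.8 CPM there and 44.5 in cluster 3 against 6.19 to 16.5 in the others. The chondrogenic-like cluster 4 led at chr17:44804313-44805823, between P1 and P2, with 9.62 CPM (8.38 to 11.0) against 1.11 to 2.94.

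**Figure D4:**
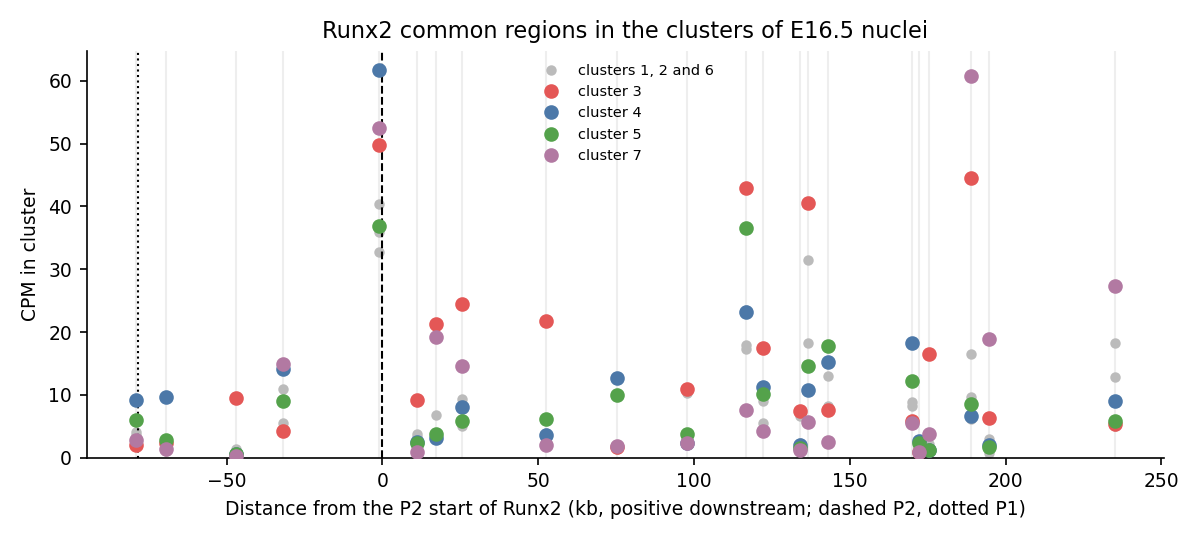
CPM (y axis, linear from 0) of the 22 Runx2 common regions in the clusters of E16.5 nuclei against the distance of each region's centre from the P2 start in kb (x axis, positive downstream; dashed line P2, dotted line P1); colours mark clusters 3, 4, 5 and 7 and grey marks clusters 1, 2 and 6. Clusters 3 and 7 stand above the rest at several intronic regions downstream of P2, up to 60.8 CPM, and cluster 4 is highest at both P1 (9.22 CPM) and P2 (61.7 CPM).

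Among the other loci, Runx3 was divided at the P2 promoter region, with 82.2 CPM (78.9 to 85.5) in E16.5 cluster 3 against 29.1 to 45.6, and 81.0 CPM (76.2 to 86.1) in E14.5 cluster 5 against 26.1 to 55.7. A region upstream of Runx3 P1, chr4:135106729-135107334, went the same way at lower level and with a larger ratio (6.88 CPM against 0.720 to 2.09 at E16.5, and 8.13 against 0.742 to 2.13 at E14.5). At Sp7 the intronic region chr15:102362418-102363500 was highest in the chondrogenic-like cluster 4 (12.5 CPM, 11.1 to 14.1, against 2.14 to 5.24), while the strongest Sp7 region, chr15:102376224-102378734, was highest in cluster 3 (48.5 CPM against 23.4 to 39.0). The Dlx5 promoter region reached 64.2 CPM (59.6 to 69.1) in cluster 7 against 22.3 to 33.5, and a region on the far side of Dlx6, chr6:6854114-6856799, reached 14.7 CPM (13.4 to 16.2) in cluster 3 against 3.68 to 6.77. The Msx2 promoter was highest in clusters 7 (34.4 CPM) and 3 (30.9 CPM) against 10.0 to 19.9, and the Msx1 promoter region varied least of these (34.6 to 55.4 CPM).

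The distal promoters of Runx2 and Runx3 were open in the same clusters of nuclei, which were not those where the loci as a whole were highest. At E14.5 cluster 7 (1854 nuclei, leading genes Cp, Kcnj15 and Anxa1) had 16.6 CPM (14.3 to 19.1) at Runx2 P1 and 1.56 to 3.51 in the other clusters. At Runx3 P1 the same cluster had 14.1 CPM (12 to 16.4) and the others 0.663 to 2.0. At E12.5 cluster 2 was highest at both, with 13.7 CPM (10.3 to 17.8) for Runx2 and 10.2 CPM (7.31 to 13.8) for Runx3, against 3.3 to 7.93 and 2.0 to 4.36. At E16.5 it was the chondrogenic-like cluster 4, with 9.22 CPM (8.0 to 10.6) and 6.34 CPM (5.34 to 7.48), against 2.05 to 5.97 and 1.57 to 4.08. In E16.5 cluster 4 the Runx2 P2 promoter was also highest (61.7 CPM, against 32.8 to 52.5), but in E14.5 cluster 7 neither P2 promoter stood out, with 61.9 CPM for Runx2 (40.2 to 64.0 in the others) and 41.0 CPM for Runx3 (26.1 to 81.0). The matching of P1 sites was seen after the fact and describes these nuclei only.

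**Figure D5:**
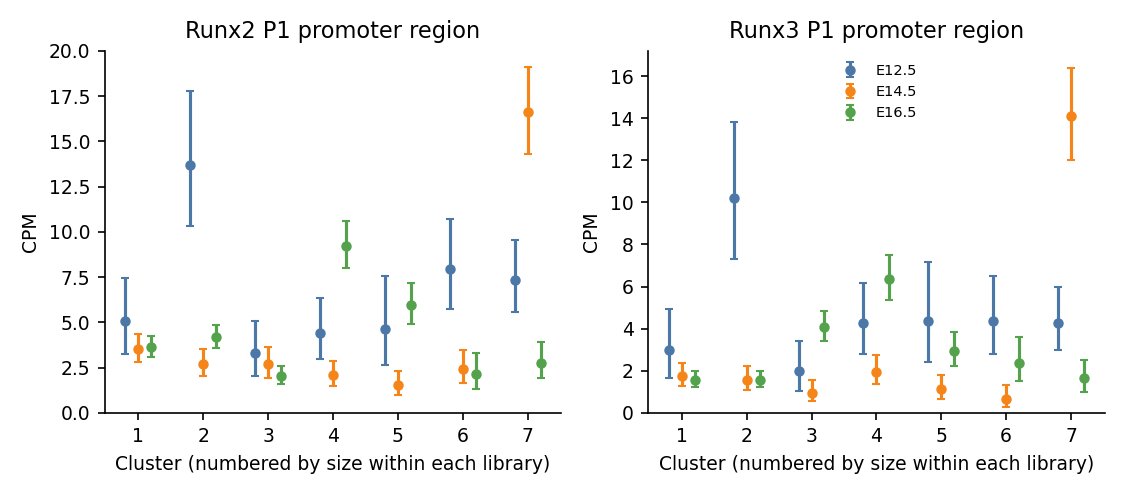
CPM (y axis, linear from 0) of the distal promoter (P1) region of Runx2 (left) and Runx3 (right) in each cluster of nuclei (x axis, numbered by size within each library) for the E12.5, E14.5 and E16.5 libraries; bars are exact 95% Poisson intervals, and equal cluster numbers in different libraries are not the same cells. Both panels have their highest value in E14.5 cluster 7 (16.6 and 14.1 CPM), and in each library the same cluster is highest for both genes.

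In thinned nuclei, opening of the loci together was close to what independent opening would give. Counts this sparse cannot tell independent from weakly joint opening. After every nucleus was thinned to 1074 fragments, at which 6223, 20023 and 13796 nuclei of the successive stages could be used, Runx2 was open (at least 1 fragment) in 23.0%, 19.5% and 21.2% of nuclei and Runx1 in 19.2%, 18.0% and 21.1%. Without thinning, the shares for Runx2 were 45.6%, 54.7% and 77.2%, which followed the depth. Over the 21 pairs of loci the median phi coefficient, a correlation of open calls over nuclei, was -0.00027 in the E12.5 library, 0.00306 in that of E14.5 and 0.00545 in that of E16.5. The pair with the highest phi at E16.5 was Runx3 and Sp7, open together in 155 nuclei where 118.8 were expected, a phi of 0.0312. Runx1 and Runx2 were open together in 676 nuclei against 616.8 expected, and Msx1 and Msx2 in 26 against 35.9.

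Correlations this small in sparse counts were taken as no finding. They depended on the thinning, since at 2410 fragments in the 12816 nuclei deep enough the E16.5 median was 0.0191, 20 of 21 pairs were above 0 and the highest pair was Runx2 and Runx3 (0.0542). Msx1 and Msx2 changed sign, with 197 nuclei open at both against 163.6 expected at that depth. Counted over all loci, 3 of 7 were open in 466 E16.5 nuclei (419.1 expected from the single shares) and 4 of 7 in 71 (47.0 expected). The distant genes with the highest phi with each locus at E16.5 were Sox6, Gdpd5 and Serpinc1 for Runx1, Gm11111, Thsd7a and Lef1 for Runx2, Thsd4, Cacna2d3 and Wwp2 for Runx3, Cdx1, Maff and Prkcb for Sp7, Gja4 and Rps14 for Dlx5 and Dlx6, Foxd1, Ch25h and Ctcfl for Msx1, and Galnt9, Fam71e1 and Mybpc2 for Msx2. Their phi values were 0.0339 to 0.0433. The median over all genes was -0.000893 to 0.000799, which these genes exceed because they were picked as the highest.

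None of 16 partners and regulators of the members and none of the 11 measured target or matrix genes (of 16 listed) was at least 2-fold higher or lower at E16.5 than at E12.5, where 1.57% of all genes were higher and 2.46% lower, so counts of 0 set neither list apart, and their median log2 ratios were 0.00 and 0.04 against -0.01 for all genes and -0.15 for the members. Cbfb, which encodes the partner that raises the affinity of RUNX proteins for DNA, gave 130.3, 162.9 and 140.2 CPM. The largest difference was at Col1a1, the main collagen of bone matrix, with 198.0, 191.8 and 303.0 CPM and a log2 ratio of 0.61. Ifitm5, a membrane protein of mineralising osteoblasts, followed with 104.8, 140.8 and 140.0 CPM (0.42). Such sums cover a whole window and can include promoters of neighbouring genes. Bglap and Bglap2 gave the same sums (29.6, 31.8 and 26.5 CPM), so the 11 genes are not 11 separate measurements. Ibsp, Dmp1, Mmp13 and Col10a1, genes of mature osteoblasts, osteocytes or hypertrophic chondrocytes, had no common region, and Phex lies on the X chromosome and was not in the autosomal sums.

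Short motifs of the factors themselves were about as frequent in the member regions outside promoters as in all such regions. In windows of 300 bp at the region centres, read on both strands, the RUNX core TGTGGT occurred in 11 of the 60 member regions that overlapped no promoter (18.3%, against 21.8% of 65499 such regions), the homeodomain core TAATTG of DLX and MSX proteins in 6 (10.0% against 11.0%) and the AP-1 motif TGANTCA in 7 (11.7% against 12.2%). Of the 14 promoter regions, 3 held the RUNX core (21.4% against 13.5% of 17431) and none held TAATTG (4.93%) or TGANTCA (5.19%). In the 250 bases before a start, 14% of 32851 RefSeq promoters held at least 1 RUNX core, as Runx2 P1 did, and 1.27% held at least 2, as Runx3 P1 did, while 6.75% held the AP-1 motif. A match is a match of letters and does not show binding.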

How the data were processed

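Nuclei of tdTomato+ cells from 1 library per stage were profiled by droplet ATAC sequencing. The deposited count matrices give cut-site counts per peak and nucleus, made by the authors with Cell Ranger ATAC (version 1.1.0 in the submitters' processing notes; the file headers name 1.0.1 for E12.5 and E14.5 and 1.2.0 for E16.5) after bcl2fastq, on mm10, with peaks called in each library separately. Barcodes were used as deposited and no doublet caller was run. Overlapping peaks (at least 1 bp) of the 3 libraries were merged, and a merged region with a peak of every library was a common region. Values were scaled per 1000000 cut sites in autosomal common regions, and intervals (95%, exact) were computed on fragment equivalents, since 1 fragment gives up to 2 cut sites. Amplified reads are not independent molecules, so intervals cover counting error only. Promoters spanned 1000 bp before to 100 bp after an annotated start (GENCODE vM21). Values for all genes, unlike those of the member loci, include regions at promoters of other genes.

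Nuclei were clustered within each library by k-means (7 clusters, 10 starts) on 30 components of latent semantic indexing of binarised regions, leaving out the 1 component per library that correlated with log depth above 0.5 and all regions within 100 kb of member or marker genes. Leading genes had at least 10 CPM over the gene body and 2 kb upstream. A cluster was called "-like" where at least 3 markers of the list were detected and its leading genes held markers of no other list in larger number. For co-opening, nuclei were thinned to 1074 fragments, the 25th percentile at E12.5, and shallower nuclei (2071 at E12.5 and 252 at E16.5) were left out. A region or gene was counted as different at 2-fold. Named regions were each member's promoters, its highest region at E16.5 and, outside promoters, the largest gain and loss from E12.5 to E16.5 among regions with at least 5 CPM in 1 library. Named distant genes were the 3 with the highest phi at E16.5 among those over 1 Mb away and open in at least 1% of nuclei. Some genes that these rules or lists name are not reported here. Further regions at matched positions and by cluster were picked after their values were seen. The members and lists were chosen with earlier results of these data known. Python 3.11.15, numpy 2.4.6, pandas 2.3.3, scipy 1.17.1, scikit-learn 1.9.0 and matplotlib 3.10.9 were used, and the scripts were tested on simulated data. Alternatives covered scaling, peak width, region matching, binarisation, thinning, the window, the fold, the deepest 5% of nuclei and the clustering. Another seed for thinning was added after seeing the data.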

Additional observations from a re-analysis of the deposited data

Results flagged for a closer look

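Some accessibility in the windows lay in regions that had a peak in 1 library alone and so entered no comparison. Of the 195 merged regions of the windows, 36 (18.5%) had a peak only in the E12.5 library, 48 (24.6%) only in the E16.5 library and none only in the E14.5 library, beside 19.5%, 27.4% and 0.257% of all autosomal regions. The strongest at E12.5 lay in the Runx2 window at chr17:44809225-44809988, between P1 and P2, with 3.65 CPM (3.07 to 4.30), where a count of 0 (up to 3 cut sites) would allow 0.0405 CPM. The strongest at E16.5 also lay in the Runx2 window, at chr17:44713048-44714477, with 7.48 CPM (7.07 to 7.90), where a count of 0 would allow 0.00903 CPM. Signal without a peak call is not in the files used here, so the level of these regions at the other stages is unknown. The share of such regions moved with the number of peaks called, and the part of depth in it was not tested.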

How the results depend on the processing

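With 1 library per stage no replicate could be left out, and no paired analysis was possible because no stage had a second library. Dividing by the called peak width changed most. The members' median log2 ratio became 0.33 from E12.5 to E14.5 and -0.61 from E14.5 to E16.5, the E14.5 over E12.5 count of lower regions became 2, the E16.5 over E14.5 counts became 0 higher and 13 lower, and the E16.5 over E12.5 counts became 1 higher and 8 lower. In the 33 regions at matched positions the medians were -0.17 from E12.5 to E14.5 and -0.05 from E14.5 to E16.5, with 3 higher and 2 lower, then 2 higher and 2 lower, and 5 higher and 7 lower over both steps. Among the 53 regions with a mean over the libraries of at least 5 CPM, 2 were higher in the first step, 7 in the second (median -0.04) and 5 over both. Binarised counts left 2 lower from E14.5 to E16.5, windows of 50 kb raised the higher count of that step to 19, and a 1.5-fold limit gave 8 higher and 27 lower in the first step and 25 and 9 in the second. Part of this follows from fewer regions or another limit, and otherwise the cause was not tested. No 2-fold value of a locus or of a member's own promoter reversed, since none was 2-fold. Per kb of called width, however, 2-fold values of several single regions at Runx1, Runx2, Runx3 and the Dlx locus changed sign. Among them was the gain from E14.5 to E16.5 at chr6:6870121-6877036 in the Dlx locus (1.37 on the log2 scale), which became -1.41. The gains of that step at chr16:92683028-92685269 (1.88, then -0.88) and chr17:44637191-44638904 (2.86, then -0.26) also did. Over the 9 alternatives (8 for Msx1), 4 of 7 loci kept their sign from E12.5 to E16.5, 1 from E12.5 to E14.5 and 2 from E14.5 to E16.5. Of the values under alternatives, 103 of 186 for loci, 81 of 159 for promoters, 20 of 60 for region counts and 11 of 84 for clusters moved.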

Other observations

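Several Runx elements also differed between the clusters of E12.5 nuclei. The Runx1 region chr16:92653690-92655103, which led in the chondrogenic-like cluster of E16.5, had 24.5 CPM in E12.5 cluster 4 and 1.39 to 12.1 in the other clusters. The Runx2 region chr17:44804313-44805823, which led in the same E16.5 cluster, had 20.4 CPM in E12.5 cluster 4 and 3.90 to 12.7 elsewhere. At E14.5 the first of these was highest in cluster 7 (30.6 CPM, with 27.2 in the chondrogenic-like cluster 2) and the second spanned only 1.79 to 4.40 CPM. Col9a3, a cartilage collagen, and Wwp2 were among the leading genes of that E12.5 cluster, which was also highest (32.8 CPM) at chr16:92737790-92740791, an element of E16.5 cluster 3. The Runx2 region chr17:44540618-44541546, highest in cluster 7 at E16.5, had 16.5 CPM in E12.5 cluster 6 and 1.82 to 7.80 elsewhere. The Runx2 exonic region with the largest loss over the stages, chr17:44562910-44564144, had 27.8 CPM in E12.5 cluster 2, the cluster with the highest P1 values, and 1.80 to 14.9 elsewhere. These regions were picked after their values were seen. E12.5 cluster 7, where the Dlx locus, Runx3, Msx1 and Msx2 were highest, had 563 nuclei with a median depth 446.6% of the library's median. With 10 clusters the Dlx locus, Msx1 and Msx2 were still highest together, in a cluster with 96.0% of its nuclei from cluster 7. Another seed, and clustering on regions outside promoters, put Runx1, Sp7, the Dlx locus and Msx2 in a cluster that was mostly cluster 4.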
